A study of Nicotiana tabacum with 9 samples.

Results

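The genes described here are tobacco (Nicotiana tabacum) leaf genes annotated with an AP2/ERF domain, an ethylene insensitive 3 (EIN3) DNA-binding domain, or an entry naming 1-aminocyclopropane-1-carboxylate (ACC), the precursor of ethylene. Of 69500 genes in the deposited expression table, 398 carry such a description. Members were chosen from these by their values: a gene was kept where its mean over the 9 libraries was at least 1, which left 97 genes. Of the 97, 93 had an AP2/ERF domain, 3 were EIN3-like and 1 was described as ACC deaminase/D-cysteine desulfhydrase. The rule found 0 genes described as ACC synthase or ACC oxidase, the enzymes that make ethylene in plants. The set is therefore almost wholly one of AP2/ERF domain genes, and ethylene synthesis itself is not analysed here.

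RNA was sequenced from leaf tissue of 3 plant materials labelled Y, KY and K326, with 3 libraries each. Of these, K326 is a flue-cured tobacco variety. A genotype name is all the labels give for each material; they state no allele, treatment, leaf position or plant age, and what Y and KY stand for is not assumed. According to its title, the series concerns yellowing of the leaf and DHNA, a gene of folate synthesis. Whether the replicates were separate plants is not labelled, so a p-value covers the spread among these libraries alone, some of which may be technical.

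Ethylene is a gaseous plant hormone that promotes leaf yellowing, fruit ripening and responses to wounding and pathogens. In Arabidopsis, ethylene binding to its receptors releases EIN2, which stabilises EIN3-type transcription factors in the nucleus, and these switch on genes of the ethylene response factor (ERF) family. ERF proteins carry an AP2/ERF domain, which binds DNA. Relatives with the same domain act in cold and drought responses (the DREB or CBF factors), in flower and seed development, and, in tobacco, in the jasmonate-driven control of nicotine synthesis. The descriptions in the table mostly name domains, so most members cannot be assigned to one of these branches.

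The deposited value of a gene is a normalised expression value of unnamed unit. Library sums of this value were 551496 to 603165, and the depth of sequencing is unknown. Whether it is scaled to transcript length is not given in the sources used here, so an order of genes by value is only an order of deposited values. RuBisCO small chain genes, which mark photosynthetic leaf tissue, summed to 53817 to 65961 in Y, 73446 to 77456 in KY and 64634 to 78371 in K326. Of 3 genes with root marker descriptions, 2 were at 0 in every library and the third reached 0.05 in KY replicate 1 alone. Chlorophyll a/b-binding genes, the other leaf list, summed to 35275 to 41877 in Y, 34682 to 52048 in KY and 28996 to 40429 in K326, with 59 of 76 tested. Their median log2 difference was 0.29 for Y minus K326, against -0.08 over all tested genes, with 1 gene called higher. For KY minus K326 it was 0.37, against -0.14, with 2 called higher. Over all tested genes 0.777% and 0.232% were called higher. At an unadjusted p below 0.05, 12 of the 59 were higher in Y and 22 in KY, with 0 lower in either. The shares higher over all tested genes were 4.32% and 2.28%. Of 9 tested RuBisCO small chain genes, 1 was called higher, in KY. At that unadjusted p, 4 were higher in KY, and in Y 1 was higher and 1 lower. Across all tested genes KY replicate 1 correlated at 0.954 with K326 replicate 3, at 0.94 with KY replicate 3 and at 0.899 with KY replicate 2. Since many calls turned on this library, counts for KY are also given without it, an alternative that was chosen after seeing the data for the lists, the overlaps and the genes named by role.

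The threshold of 1 fell inside a continuous range of levels. The 3 members just above it had means of 1.05 (Nitab4.5_0000376g0040), 1.05 (Nitab4.5_0000058g0020) and 1.11 (Nitab4.5_0000280g0010), and the 3 matching genes just below it had means of 0.979, 0.948 and 0.941. Of the 301 matching genes below it, 85 were listed at 0 in all 9 libraries, 216 were above 0 somewhere and 47 reached 1 in at least 1 library. Among the members, 83 had a mean of at least 1 in each material, 11 in 2 materials and 3 in a single material. These 3 were Nitab4.5_0003868g0010 in Y, Nitab4.5_0000280g0010 in KY and Nitab4.5_0000105g0290 in K326. A gene kept through a single material had to differ between materials, so no count below is read as evidence about the family.

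The only member with an ACC entry, Nitab4.5_0003066g0040, varied little. In Arabidopsis, the enzyme of this name breaks down D-cysteine, and bacterial ACC deaminases degrade ACC. Its values were 4.04, 4.65 and 2.70 in Y, 3.64, 3.02 and 3.43 in KY, and 2.48, 3.79 and 3.21 in K326, so all materials overlapped. The log2 difference was 0.20 (SE 0.20) for Y minus K326 and 0.08 (SE 0.20) for KY minus K326. The log2 differences given here and below are of value + 1, a scale that makes changes of low genes look smaller, and SE is the standard error of the fit.

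Upstream of the transcription factors, few pathway genes reached the threshold. S-adenosylmethionine synthetase makes the methyl donor from which ACC is formed, and also feeds many other reactions. All 4 of its tested genes, of 14 with that description, lay lower in Y than in K326. Of the 4, 0 were called by limma in any comparison. In Y, 3 were lower than in K326 at an unadjusted p below 0.05, as were 8.18% of all tested genes. Nitab4.5_0004665g0010 averaged 73.9 in Y, 136 in KY and 139 in K326 (Y minus K326 -0.93, SE 0.25, limma adjusted p = 0.137). The receptor-type gene with an ethylene sensor entry that passed the threshold, Nitab4.5_0004928g0060, averaged 2.45, 2.25 and 2.05 in Y, KY and K326, and 10 other genes with that entry were below it. The single EIN2 gene above the threshold, Nitab4.5_0027568g0010, averaged 4.92, 4.68 and 5.20. Its log2 difference was -0.07 (SE 0.19) for Y minus K326 and -0.13 (SE 0.19) for KY minus K326. Genes with a DUF778 domain, the domain of the Arabidopsis receptor partner RTE1, had 2 tested members and 0 calls.

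EIN3-type factors are the nuclear switches of ethylene signalling in Arabidopsis. In these leaves 3 of 4 genes with that description were members, and none was called. Nitab4.5_0002687g0110 had values of 2.5, 0.60 and 5.83 in Y, 3.24, 5.26 and 7.19 in KY, and 2.08, 4.11 and 2.96 in K326. For Nitab4.5_0008999g0020 the values were 1.04, 1.97 and 4.75 in Y, 7.0, 4.66 and 3.91 in KY, and 3.47, 2.64 and 3.55 in K326. In both genes KY had the highest mean, but only for the second did all KY libraries lie above all K326 libraries (KY minus K326 0.53, SE 0.36, limma adjusted p = 0.607). Among the Y libraries of both genes, replicate 3 was the highest, and its value exceeded the mean of KY only for the first. The third gene, Nitab4.5_0009808g0030, averaged 1.36 ± 0.125 in Y, 1.48 ± 0.884 in KY and 1.04 ± 0.04 in K326 (SD, n = 3 each), and its KY mean was carried by replicate 2, at 2.5. All Y libraries of this gene lay above all K326 libraries (0.21, SE 0.24, limma adjusted p = 0.765). Without KY replicate 1, KY minus K326 was 0.85, 0.33 and 0.35 for the 3 genes in this order, and none was called.

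The AP2/ERF domain members differed widely in deposited level. The 10 with the highest means held between 37.4% of the summed AP2/ERF value, in K326 replicate 3, and 52.1%, in Y replicate 2. The highest, Nitab4.5_0026202g0010, had values of 76.5, 93.7 and 73.9 in Y, 79.8, 110.75 and 101.02 in KY, and 116.6, 128.7 and 84.3 in K326. Y averaged 81.4 ± 10.8, KY 97.2 ± 15.8 and K326 110 ± 22.9 (SD, n = 3 each). Libraries of all 3 materials overlapped (Y minus K326 -0.41, SE 0.20, limma adjusted p = 0.446). Nitab4.5_0000601g0120, the next, averaged 53.4 ± 14.4, 51.5 ± 4.26 and 60.4 ± 10.2 in Y, KY and K326. Of these 10 genes, 1 was called, Nitab4.5_0001603g0010. Among the other 9, the differences between materials ran from -0.69 (Y minus K326, Nitab4.5_0004445g0080) to 0.67 (KY minus Y, the same gene). That gene averaged 16.8, 25.8 and 26.3 in Y, KY and K326. Nitab4.5_0001161g0130 averaged 42.9 in Y, 28.3 in KY and 37.0 in K326, and its KY libraries lay below all Y libraries (KY minus Y -0.57, SE 0.20, limma adjusted p = 0.255). Nitab4.5_0001992g0130 averaged 22.4 in Y, 21.1 in KY and 31.0 in K326, with KY below K326 without overlap (-0.53, SE 0.21, limma adjusted p = 0.4). Nitab4.5_0002716g0070, Nitab4.5_0003137g0010 and Nitab4.5_0000287g0030 overlapped between all materials.

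**Figure D1:**
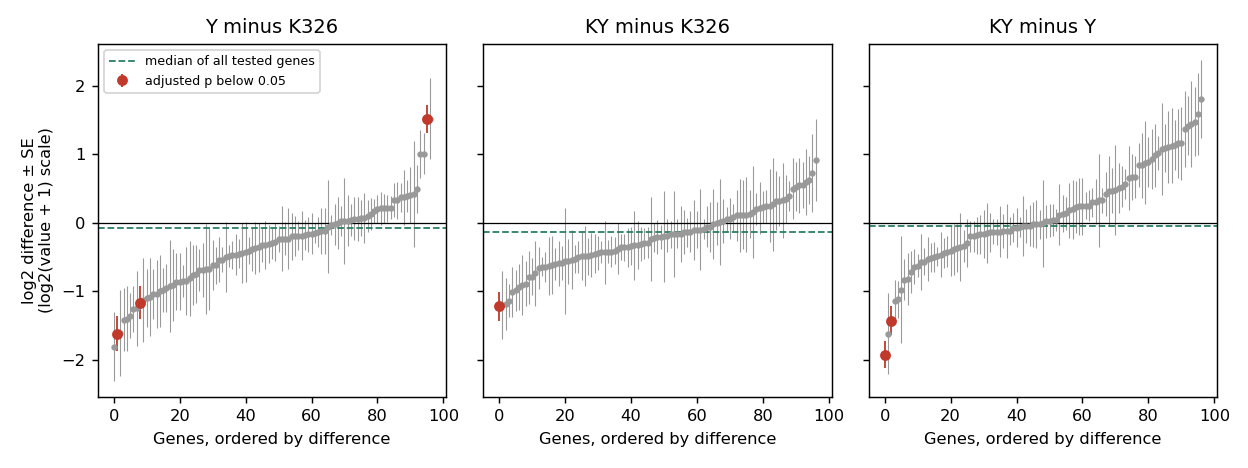
Log2 differences of the 97 genes (points, with standard errors) in 3 panels, Y against K326, KY against K326 and KY against Y, each ordered from the lowest to the highest difference. Red points are genes with a limma adjusted p below 0.05 (3, 1 and 2 genes), and the dashed line is the median of all 16348 tested genes (-0.08, -0.14 and -0.05).

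The comparison of Y with K326 sets a labelled genotype against the named variety. In Y leaves, 1 AP2/ERF domain gene rose and 2 fell, and the remaining 94 members did not pass the test (limma fitted on all 16348 genes with a mean of at least 1, Benjamini-Hochberg adjusted p below 0.05). Over all tested genes, 0.777% rose and 1.21% fell, so the members' shares of 1.03% and 2.06% stand on 1 and 2 genes. Libraries did not overlap, with Y higher, for 6 members, or 6.19%, against 7.41% of all tested genes. With Y lower, they did not overlap for 14 members, or 14.4%, against 14.7%. These shares were near the background. At an unadjusted p below 0.05, 4 members were higher (4.12%, against 4.32% of all tested genes) and 16 lower (16.5%, against 8.18%). The median log2 difference of the members was -0.30, against -0.08 over all tested genes, and 69 members lay below 0 (71.1%, against 60.0% of all tested genes). Leaving out Y replicate 3 moved the members' median to -0.44, leaving out Y replicate 2 moved it to -0.23, and it was -0.21 after median-of-ratios scaling, which set the median of all genes to 0.00. Without Y replicate 1, Y replicate 2 or K326 replicate 3, the gene that rose was the only call.

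The gene that rose, Nitab4.5_0001603g0010, separated Y from both other materials. Its values were 48.3, 36.2 and 32.7 in Y, 11.1, 10.2 and 7.16 in KY, and 12.3, 13.05 and 12.96 in K326. Every Y library lay above every library of the other materials, and the lowest Y value was more than 2 times the highest of theirs. The log2 difference was 1.52 for Y minus K326 (SE 0.20, limma adjusted p = 0.00466) and -1.93 for KY minus Y (SE 0.20, limma adjusted p = 0.00176). Both calls were kept in all 17 alternative settings, with limma adjusted p up to 0.0306 and 0.0211. KY lay below K326 without overlap, but this difference was not called (-0.41, SE 0.20, limma adjusted p = 0.488). Another AP2/ERF gene carries the same scaffold number, Nitab4.5_0001603g0050, and had the opposite order, with means of 4.95, 7.95 and 5.73 in Y, KY and K326. Over the 9 libraries the 2 genes correlated at -0.61.

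Of the genes that fell, Nitab4.5_0000516g0110 was ordered from Y over KY to K326. It had values of 1.37, 0.91 and 2.28 in Y, 4.88, 3.22 and 4.03 in KY, and 5.25, 6.10 and 8.69 in K326, with no overlap between any 2 materials. Only the difference of Y from K326 was called (-1.62, SE 0.25, limma adjusted p = 0.0122). That of KY from Y was 1.02 (SE 0.25, limma adjusted p = 0.115) and that of KY from K326 -0.59 (SE 0.25, limma adjusted p = 0.421). The call was lost without Y replicate 1, Y replicate 2 or K326 replicate 3, with limma adjusted p from 0.0504 to 0.0652.

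Nitab4.5_0000116g0330 was low in Y and KY alike. Its values were 1.82, 1.75 and 3.31 in Y, 1.69, 3.29 and 2.11 in KY, and 6.28, 5.55 and 6.99 in K326, so Y and KY overlapped and both lay below K326. The fall in Y was called narrowly (-1.17, SE 0.24, limma adjusted p = 0.0464) and was lost in 11 of 16 alternatives, with limma adjusted p from 0.0675 to 0.207. Among these were both other scalings and the omission of any 1 K326 library, of Y replicate 1 or 2, or of KY replicate 3. KY minus K326 had nearly the same size (-1.14, SE 0.24, limma adjusted p = 0.0921). Both comparisons share the K326 libraries.

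**Figure D2:**
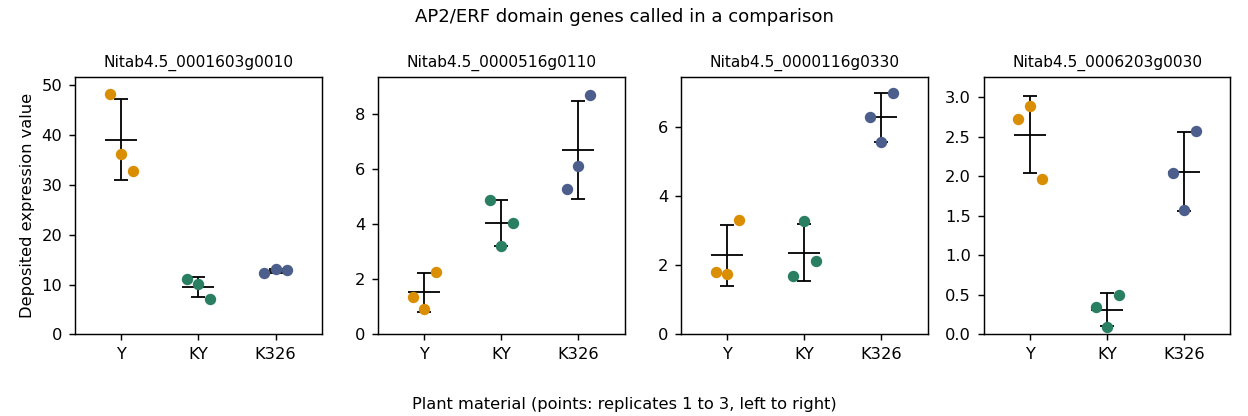
Deposited expression values of the 4 AP2/ERF domain genes called in at least 1 comparison, in Y, KY and K326 (points: libraries; bars: mean ± SD, n = 3). Nitab4.5_0001603g0010 lies between 32.7 and 48.3 in Y and at most at 13.05 elsewhere, and Nitab4.5_0006203g0030 is at most at 0.50 in KY and at least at 1.57 elsewhere.

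Other members differed between Y and K326 without overlap but did not pass the test. On the high side were Nitab4.5_0001088g0170, with values of 5.93, 7.93 and 5.23 in Y and 0.60, 1.63 and 2.91 in K326 (1.52, SE 0.59, limma adjusted p = 0.331), and Nitab4.5_0003868g0010, which averaged 2.22 in Y and 0.60 in K326 (1.01, SE 0.30, limma adjusted p = 0.195). The latter passed the threshold through Y alone, so a high level in Y is what made it a member. Nitab4.5_0010294g0020 averaged 15.3 ± 3.23 in Y and 7.35 ± 2.73 in K326 (SD, n = 3 each; limma adjusted p = 0.281). On the low side, Nitab4.5_0000486g0010 averaged 1.08 in Y and 4.40 in K326 (-1.36, SE 0.33, limma adjusted p = 0.097). Nitab4.5_0001375g0160 averaged 1.84 in Y and 5.82 in K326 (-1.26, SE 0.33, limma adjusted p = 0.127), and it was called without KY replicate 1 (limma adjusted p = 0.0263) and when only Y and K326 were fitted (limma adjusted p = 0.0282). Nitab4.5_0001083g0010 averaged 0.33 in Y and 2.09 in K326 (limma adjusted p = 0.337).

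The comparison of KY with K326 uses the same K326 libraries. In KY leaves 1 AP2/ERF domain gene fell, and 0 members rose by limma. Over all tested genes 0.232% rose and 0.557% fell. At an unadjusted p below 0.05, 0 members were higher, against 2.28% of all tested genes, and 16 were lower (16.5%, against 9.13%). Libraries did not overlap, with KY higher, for 1 member, or 1.03%, against 3.21% of all tested genes. With KY lower they did not overlap for 14 members, or 14.4%, against 12.4%. Without KY replicate 1 these counts were 8 higher (8.25%, against 8.66%) and 32 lower (33.0%, against 33.7%). The median difference of the members was -0.21, against -0.14 over all tested genes. Median-of-ratios scaling moved the median of all genes to 0.00 and that of the members to -0.08, a shift of the whole table; relative to the median of all genes, the members' median was -0.07 before scaling. The same scaling changed the split of all calls to 49 up and 73 down, and quantile normalization to 51 and 73, against 38 and 91 without scaling.

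The gene that fell, Nitab4.5_0006203g0030, was low in KY alone. It had values of 0.35, 0.09 and 0.50 in KY and 2.04, 1.57 and 2.57 in K326, with 2.73, 2.89 and 1.97 in Y. KY lay below both other materials without overlap. For KY minus K326 the difference was -1.22 (SE 0.21, limma adjusted p = 0.0419), and this call was lost in 14 of 16 alternatives, with limma adjusted p from 0.0515 to 0.178. It was kept without KY replicate 1 and with robust empirical Bayes, and lost without any 1 of the other 8 libraries. Without KY replicate 2 the only call was another gene, Nitab4.5_0012385g0010 (-1.03, limma adjusted p = 0.0385). For KY minus Y it was -1.43 (SE 0.21, limma adjusted p = 0.0122), lost in 3 of 16 alternatives, among them without Y replicate 1 or 2, with limma adjusted p from 0.0535 to 0.0729. With levels this low, each value rests on little signal, and how many reads lie behind it is unknown.

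Leaving out KY replicate 1 changed this comparison the most. The total of 129 called genes became 655, and the members called became 6, all lower in KY (6.19%, against 3.36% of all tested genes). They were Nitab4.5_0006203g0030 and 5 genes not called with all libraries. Among those, Nitab4.5_0002902g0060, described as a Pti6-type activator, had the lowest limma adjusted p, 0.00932 (log2 difference -1.69). Tomato Pti6 is an ERF that binds promoters of pathogenesis-related genes. With all libraries this gene had values of 3.74, 0.46 and 0.91 in KY and 5.44, 3.70 and 4.18 in K326, so that KY replicate 1 alone overlapped K326. The other 4 were Nitab4.5_0001004g0220, Nitab4.5_0001375g0160, Nitab4.5_0001886g0060 and Nitab4.5_0006479g0010, with limma adjusted p from 0.0262 to 0.044. Nitab4.5_0006479g0010 averaged 3.19 ± 1.62 in KY and 6.97 ± 1.47 in K326 with all libraries (SD, n = 3 each). Nitab4.5_0002350g0030, whose libraries also did not overlap, averaged 5.97 in KY and 12.5 in K326 (-1.01, SE 0.37, limma adjusted p = 0.351).

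Between KY and Y, 2 members fell in KY and 0 rose by limma, against 0.483% that rose and 0.814% that fell over all tested genes. An unadjusted p below 0.05 was reached by 13 members higher in KY (13.4%, against 4.24% of all tested genes) and 12 lower (12.4%, against 8.96%). The members that fell were Nitab4.5_0001603g0010 and Nitab4.5_0006203g0030, described above. Libraries did not overlap, with KY higher, for 8 members, or 8.25%, against 5.39% of all tested genes. With KY lower they did not overlap for 10 members, or 10.3%, against 11.2%. Without KY replicate 1 these counts were 15 higher (15.5%, against 9.15%) and 21 lower (21.6%, against 23.0%). The median difference was -0.01, against -0.05 over all tested genes, and 48 members lay above and 49 below 0. The sign of this median turned under both other scalings, to 0.05 for each. Without KY replicate 1, 4 members were called, adding Nitab4.5_0001088g0170 and Nitab4.5_0002902g0060; all 4 were lower in KY (4.12%, against 1.26% of all tested genes). Without KY replicate 2, 4 were called, adding Nitab4.5_0003868g0010 and Nitab4.5_0012385g0010, again lower in KY. Of these, Nitab4.5_0003868g0010 had passed the threshold through Y alone, so it had to be higher there. Without Y replicate 1 or 2 the only call was Nitab4.5_0001603g0010. Nitab4.5_0000874g0120, with values of 1.15, 1.42 and 1.53 in KY and 4.59, 4.13 and 3.75 in Y, missed the threshold (-1.12, SE 0.27, limma adjusted p = 0.105), and was called without K326 replicate 2 (limma adjusted p = 0.0187). Nitab4.5_0002394g0010 averaged 4.47 in KY and 1.13 in Y (1.48, SE 0.50, limma adjusted p = 0.239).

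Members varied more between libraries of a material than tested genes did in general. The median SD within a material, on the log2(value + 1) scale, was 0.45 for the members and 0.29 for all tested genes, which differ in level and were not matched for it. Y replicate 3 was the highest Y library for 60 members (61.9%, against 44.1% of all tested genes), and Y replicate 2 was the lowest for 48 (49.5%, against 32.1%). Among the K326 libraries, replicate 1 was the lowest for 44 members (45.4%, against 22.2%). The summed value of the members was 719, 707 and 979 in Y, 857, 879 and 838 in KY, and 892, 1101 and 963 in K326.

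**Figure D3:**
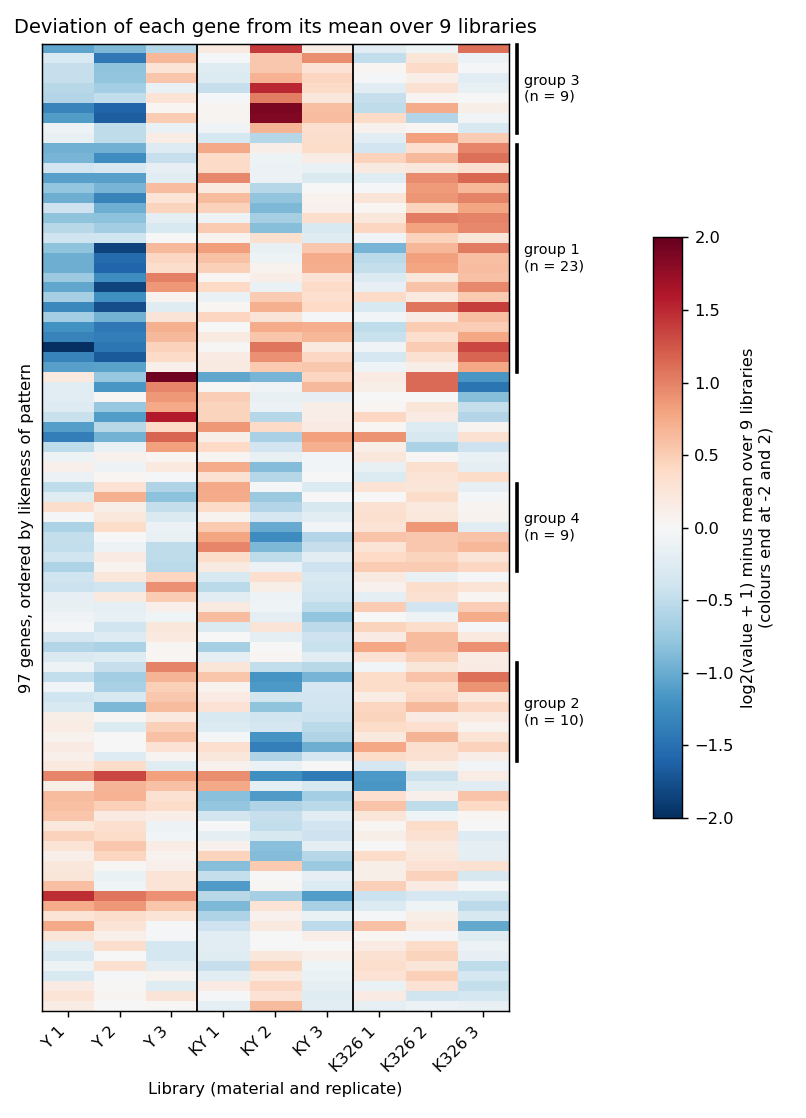
Deviation of each of the 97 genes (rows, ordered by average-linkage clustering of their correlations) from its mean over the 9 libraries, on the log2(value + 1) scale, in Y, KY and K326. Bars mark the 4 largest groups, of 23, 10, 9 and 9 genes; in group 1 Y replicates 1 and 2 are low and Y replicate 3 is not.

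Grouped by the correlation of their values over the 9 libraries, with a mean correlation of at least 0.6 between merged groups, 83 members fell into 13 groups of at least 3 genes. These groups were made from the values described here and were not tested. The largest held 23 AP2/ERF domain genes with a median pairwise correlation of 0.80. In 20 of the 23, Y replicates 1 and 2 were the lowest of all 9 libraries, and in all 23 Y replicate 3 lay above both. In 22 of the 23, replicate 1 was the lowest K326 library. The median value of the group was 2.88, 1.73 and 11.7 in Y, 8.75, 6.71 and 9.36 in KY, and 5.88, 10.8 and 13.3 in K326. The median of Y replicate 3 thus lay within the range of the K326 libraries, and those of Y replicates 1 and 2 below every KY and K326 library.

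Nitab4.5_0007739g0010, with 7.57, 4.60 and 20.4 in Y and 11.0, 28.0 and 24.8 in K326, and Nitab4.5_0003076g0060, with 7.05, 5.26 and 18.1 in Y and 18.0, 28.3 and 30.5 in K326, show this shape. With all libraries, only 1 of the 23 was called in any comparison, Nitab4.5_0000516g0110. The median difference of Y minus K326 over the group was -1.0 with all libraries and -1.56 without Y replicate 3, and the number called was 1 each time. For KY minus Y it was 0.99 with all libraries and 1.28 without Y replicate 3, when 1 gene was called, Nitab4.5_0002236g0020 (limma adjusted p = 0.0494). Without KY replicate 1 the median of KY minus Y was 0.87, and 0 of the 23 were called in that comparison. In the same setting 2 were called for Y minus K326 and 1 for KY minus K326.

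**Figure D4:**
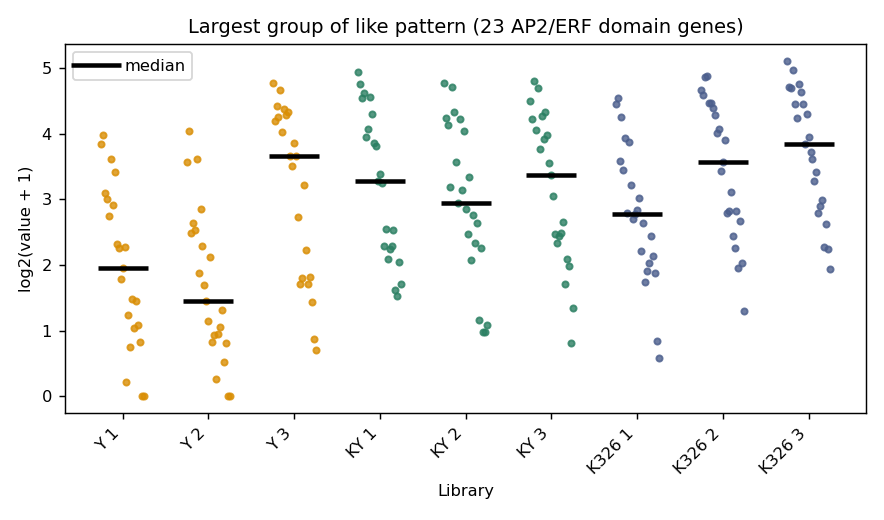
Values on the log2(value + 1) scale of the 23 AP2/ERF domain genes of the largest group, by library in Y, KY and K326 (points: genes; black bars: median over the genes). Y replicates 1 and 2 lie lowest, with median deposited values of 2.88 and 1.73 against 11.7 in Y replicate 3.

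Some of these genes have identifiers that place them on the same scaffold. On 7 scaffolds there were at least 2 members, 16 in all, and the 11 pairs within a scaffold correlated at a median of 0.87, against 0.14 over all 4656 pairs of members. Near-identical neighbours can share reads, so such a correlation need not be of separate transcripts. Scaffold 0002236 held 3 members with correlations from 0.93 to 0.96. Of these, Nitab4.5_0002236g0040 had values of 4.02, 3.91 and 19.03 in Y, 13.5, 17.7 and 19.2 in KY, and 8.31, 15.1 and 20.8 in K326. Scaffold 0002211 held 3 members with correlations from 0.84 to 0.94, of which Nitab4.5_0002211g0060 had 5.73, 4.76 and 24.5 in Y, 14.5, 25.1 and 24.8 in KY, and 9.92, 21.2 and 20.9 in K326. The pair on scaffold 0000600 correlated at 0.87. All 8 of these genes belonged to the largest group, whereas pairs on scaffolds 0000874, 0001088 and 0000333 correlated at 0.44 to 0.57.

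Genes that combine an AP2/ERF with a B3 DNA-binding domain, the layout of the Arabidopsis RAV factors that act in flowering time and senescence, varied together between libraries. Of 6 such genes 4 were members, with pairwise correlations from 0.80 to 0.92. All 4 had their highest value in KY replicate 2 and their lowest in Y replicate 1 or 2. Of these, Nitab4.5_0000280g0010 and Nitab4.5_0012899g0010 passed the threshold through that library, since without it their means were 0.866 and 0.832, so a high KY replicate 2 is partly what made them members. KY replicate 2 was the highest library for 14 of the 97 members and for 11.3% of all tested genes. Nitab4.5_0008588g0010 had values of 1.40, 0.97 and 5.16 in Y, 5.26, 21.0 and 8.12 in KY, and 3.22, 9.02 and 5.49 in K326. For Nitab4.5_0000672g0020 they were 1.11, 0.47 and 5.52 in Y, 3.78, 15.5 and 6.06 in KY, and 4.99, 2.06 and 3.45 in K326. Nitab4.5_0012899g0010 reached 4.75 and Nitab4.5_0000280g0010 reached 3.06 in KY replicate 2, against at most 1.64 and 1.42 in any other library.

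Means of the B3-domain genes stood highest in KY, and none was called. For Nitab4.5_0008588g0010, KY minus Y was 1.81 (SE 0.57, limma adjusted p = 0.21) and KY minus K326 was 0.73 (SE 0.57, limma adjusted p = 0.654). Only the first of these separated the libraries without overlap. Summed over the 4 genes the value was 3.21, 2.12 and 12.95 in Y, 10.45, 44.35 and 17.15 in KY, and 9.40, 13.64 and 10.75 in K326. The size of the KY mean therefore rested largely on replicate 2, at 44.35 against 10.45 and 17.15 in KY replicates 1 and 3. For Nitab4.5_0008588g0010, KY minus Y without KY replicate 1 was 2.20 (SE 0.59, limma adjusted p = 0.126), and none of the 4 was called. That omission keeps replicate 2, the highest library. Without KY replicate 2 none of the 4 was called either, and the KY values left for Nitab4.5_0008588g0010 were 5.26 and 8.12.

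**Figure D5:**
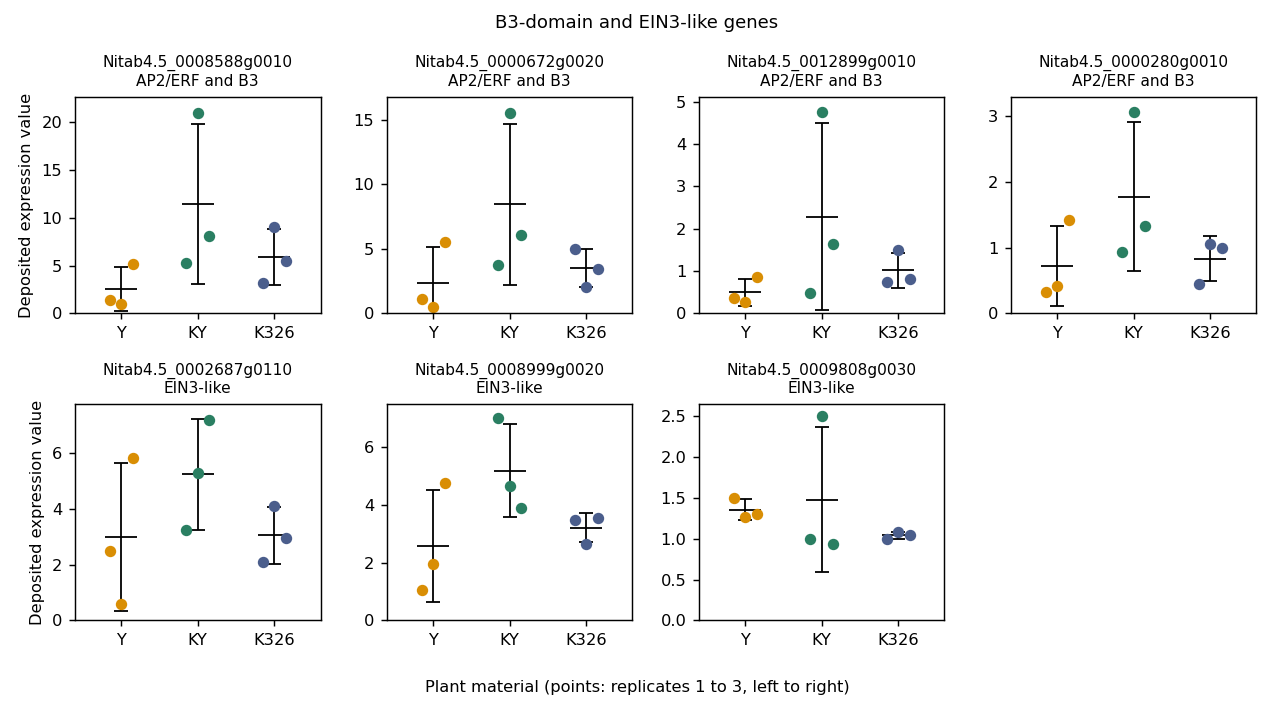
Deposited expression values of the 4 genes with AP2/ERF and B3 domains and the 3 EIN3-like genes in Y, KY and K326 (points: libraries; bars: mean ± SD, n = 3). In each B3-domain gene the highest point is KY replicate 2, at 21.0 for Nitab4.5_0008588g0010, and no gene of either kind was called.

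The members most like each called gene over the 9 libraries were found by Pearson correlation, as a description over 9 points, of which each 3 share a material. Nitab4.5_0001603g0010 was most like Nitab4.5_0003868g0010 (0.84), Nitab4.5_0001088g0170 (0.78) and Nitab4.5_0005875g0030 (0.77). Nitab4.5_0000516g0110 was most like Nitab4.5_0000306g0370 (0.90), and Nitab4.5_0000116g0330 most like Nitab4.5_0000675g0010 (0.90), 1 of the 10 members of highest value. Nitab4.5_0000675g0010 averaged 24.6 ± 3.35 in Y, 25.3 ± 2.66 in KY and 34.5 ± 4.13 in K326 (SD, n = 3 each), with both Y and KY below K326 without overlap (Y minus K326 -0.48, SE 0.16, limma adjusted p = 0.268). Nitab4.5_0006203g0030 was most like Nitab4.5_0005875g0030 and Nitab4.5_0000874g0120 (0.89 each).

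Genes of kinds that AP2/ERF factors are known to control were counted beside the members. Dehydrin and late embryogenesis abundant (LEA) genes include targets of DREB/CBF factors in Arabidopsis, and some of them protect cells in drought and cold. Of 64 tested genes with these descriptions, 0 rose and 7 fell in Y against K326 (limma), against 0.777% and 1.21% of all tested genes. At an unadjusted p below 0.05, 6 were higher and 19 lower, against 4.32% and 8.18%. The genes that fell were 6 of LEA-14 type and 1 dehydrin. Of the 6, only Nitab4.5_0006120g0030 also carried a water stress entry, so a role in drought or cold is not given for the others. The calls of Nitab4.5_0000287g0140 and Nitab4.5_0007949g0030 were each lost in 8 of 16 alternatives. That of Nitab4.5_0004699g0040 was lost in 11 of 17 and that of Nitab4.5_0006120g0030 in 5 of 17. Those of Nitab4.5_0003105g0020 and Nitab4.5_0012011g0020 were kept in all 16. The list's median difference was -0.33, against -0.08 over all tested genes. The dehydrin gene Nitab4.5_0000588g0250 fell to 204, 234 and 367 in Y, against 799, 870 and 500 in K326 (-1.43, SE 0.29, limma adjusted p = 0.046), a call lost in 12 of 17 alternatives, with limma adjusted p up to 0.206. Other dehydrin and LEA-25 genes were uncalled with the opposite sign, such as Nitab4.5_0003313g0050, which averaged 7.90 in Y and 2.46 in K326 (1.45, SE 0.40, limma adjusted p = 0.149). The LEA-14 gene Nitab4.5_0003105g0020 had 0 in each Y library, with 2.5, 2.02 and 2.25 in KY and 2.42, 2.10 and 2.96 in K326 (Y minus K326 limma adjusted p = 0.000544). In KY against K326, 0 of the 64 were called. At an unadjusted p below 0.05 there were 12 lower and 0 higher, against 9.13% and 2.28% of all tested genes. Without KY replicate 1, 4 were called lower, against 3.36%. In KY against Y 2 rose and 4 fell (all tested genes: 0.483% and 0.814%), or 2 and 2 without KY replicate 1. Those that rose were LEA-14 genes, and those that fell were dehydrin and LEA-25 genes, among them Nitab4.5_0008334g0040, which averaged 0.317 in KY and 11.7 in Y (-3.11, SE 0.47, limma adjusted p = 0.0134). Of 3 tested WCOR413-type cold acclimation genes, 1 fell in KY against Y, with means of 37.7 in KY and 79.4 in Y, a call lost in 14 of 17 alternatives. This gene, Nitab4.5_0008782g0020, averaged 81.4 in K326, and KY minus K326 was not called (-1.11, SE 0.20, limma adjusted p = 0.0517). Without KY replicate 1, 1 of the 3 genes was called lower in KY against K326.

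Defence genes of kinds with GCC-box promoters, the element ERF proteins bind, had 60 tested members. They were chitinases of family 19, glucanases of family 17, thaumatin-type proteins and proteinase inhibitors. Of these, 1 fell in Y, 1 fell in KY and 0 rose in either (all tested genes: 1.21% and 0.557% fell). Both calls were Nitab4.5_0000363g0010, a Pin2-type proteinase inhibitor gene, a type induced by wounding in Solanaceae. It was listed at 0, 0.11 and 0 in Y and at 0 in all KY libraries, and had 31.76, 13.02 and 11.38 in K326 (limma adjusted p = 0.000179 for Y minus K326 and 0.000264 for KY minus K326). The list's medians were -0.25 for Y minus K326 and -0.26 for KY minus K326. When KY replicate 1 was left out, 8 genes of the list fell in KY against K326, with a median of -0.52, and 1 rose and 3 fell in Y against K326. Over all tested genes, 3.36% fell in KY against K326 without that library, with a median of -0.19.

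Polyamine, quinolinate and berberine-bridge-type genes, whose families include the nicotine synthesis genes that ERF factors control in tobacco, had 21 tested members. Of these, 0 rose and 1 fell in Y against K326, against 0.777% and 1.21% of all tested genes. The single gene called in Y, an ornithine/arginine-type decarboxylase (Nitab4.5_0005932g0030), fell to 17.5 in Y, against 37.6 in K326 (-1.06, SE 0.18, limma adjusted p = 0.0199), and KY also averaged 37.6. This call was lost with the replicate block and without Y replicate 1 or 3 or K326 replicate 1 or 3, with limma adjusted p up to 0.108. In KY against Y the same gene rose (1.07, SE 0.18, limma adjusted p = 0.0246), a call lost in 7 of 17 alternatives. Without KY replicate 1, 3 genes of the list fell in Y, against 296 of all tested genes. Nicotine is made mainly in roots, and these are leaf libraries. Of 8 tested Tify genes, which include repressors of jasmonate signalling, 1 fell in Y (Nitab4.5_0000343g0360, 13.5 in Y and 28.1 in K326, limma adjusted p = 0.0382, lost in 8 of 17 alternatives with values up to 0.178) and 0 were called in KY against K326, also 0 at an unadjusted p below 0.05. Over all tested genes, 1.21% fell in Y and 0.557% in KY against K326.

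Markers of dividing cells, histones and cyclins, summed lower in Y than in K326 in every library. Of 276 such genes, 40 were at 0 in all libraries. Among the 123 tested, 1 rose and 5 fell in Y against K326 (all tested genes: 0.777% and 1.21%). In KY against K326, 0 were called. The 5 that fell were histone H2A and H2B genes listed at 0 to 0.14 in Y. Nitab4.5_0008504g0010, for example, was at 0 in all Y libraries, with 78.8, 17.1 and 24.0 in KY and 71.5, 47.8 and 112.6 in K326. Why these genes were near 0 in Y was not tested. At an unadjusted p below 0.05, 43 of 123 were lower in Y and 37 in KY, against 8.18% and 9.13% of all tested genes. The median differences of the list from K326 were -0.77 and -0.64, against -0.08 and -0.14 over all tested genes. Leaving out KY replicate 1 raised the calls to 38 that fell in KY against K326 and 14 in Y. Over all tested genes, the number called lower went from 91 to 550 (3.36%) in KY and from 198 to 296 in Y. The histones and cyclins summed to 1496 to 2061 in Y, 1365 to 3372 in KY and 2506 to 4619 in K326, and the KY maximum was replicate 1. The flower and pollen list summed to 994 to 1086 in Y, 697 to 1579 in KY and 1261 to 1412 in K326. Of its 447 genes, 60 were tested and 217 were at 0 in all libraries. In Y against K326, 1 rose and 1 fell. The gene that rose, the MADS-box gene Nitab4.5_0014584g0010, averaged 27.5 in Y, 0.337 in KY and 0.0933 in K326 (limma adjusted p = 4.06e-06). It was kept in all 17 alternatives, and the call that fell was lost in 16 of 17. The epidermis list summed to 3422 to 3592 in Y, 2828 to 3597 in KY and 3406 to 4115 in K326, with 59 of 242 tested and 108 at 0. Of this list, 1 gene fell in Y against K326, Nitab4.5_0000212g0010. It averaged 0.0533 in Y, 23.1 in KY and 33.6 in K326 (limma adjusted p = 1.23e-05). In KY against K326, 0 genes of either list were called with all libraries. At an unadjusted p below 0.05, 8 of the 60 flower and pollen genes were lower and 2 higher. Of the 59 epidermis genes, 13 were lower and 2 higher. Over all tested genes the shares were 9.13% and 2.28%. Without KY replicate 1, 8 flower and pollen genes and 5 epidermis genes were called lower, against 3.36% of all tested genes, and 0 higher. The part of these marker lists in the differences of the AP2/ERF genes was not tested. In whole leaves, fewer cells of a type and less RNA per cell cannot be told apart.

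Below the threshold, a fit without a filter on low values covered 216 matching genes and called 1 in each comparison. Nitab4.5_0004682g0010 was listed at 0.21, 0.21 and 0.20 in KY and at 0 in all Y and all K326 libraries (KY minus K326 0.27, SE 0.03, limma adjusted p = 0.00447). Nitab4.5_0008414g0010 was at 0 in all Y libraries and at 0.42, 0.28 and 0.43 in K326 (limma adjusted p = 0.0179). Both were chosen after their values were seen, and a listed 0 at unknown depth does not exclude transcripts.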

How the data were processed

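Leaf RNA of 9 libraries, 3 per material, was measured. The authors deposited 1 expression table whose signal values carry no unit name; means per material in it were not used. The submitters' processing notes list HISAT2, StringTie and RSEM with no version and no role, and the build used is not given in the sources used here. Identifiers shared 0 entries with the 79372 genes of the reference table (assembly ASM71507v2), so no symbols, coordinates or sequences are given. Near-identical copies of this allotetraploid can divide reads, so values of single copies are uncertain.

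Values were tested as log2(value + 1), with a pseudocount of 1, for 16348 genes with a mean of at least 1. The model held all 9 libraries and fitted each material's mean (limma 3.58.1, R 4.3.3, empirical Bayes with a trend). P-values were adjusted by Benjamini-Hochberg over all tested genes and called below 0.05. The procedure was tested on simulated data. The members and lists were chosen with earlier results of these data known; the ethylene sensor, EIN2, Tify and WCOR413 patterns were added after the descriptions had been read, since the patterns for an ethylene receptor, a macrophage-type EIN2 protein and a Tify domain matched 0 genes. Named genes are those called, the EIN3-like, B3-domain and ACC entries, the 10 AP2/ERF genes of highest mean, and, per comparison, the 3 highest and 3 lowest uncalled differences without overlap; any others were chosen after their values were seen. Groups of like pattern were made with SciPy 1.17.1. Alternatives were a pseudocount of 0.1, no filter, a mean of at least 5, median-of-ratios and quantile scaling, a replicate block, robust empirical Bayes, only the materials compared, and each library left out in turn with the tested genes kept.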

Additional observations from a re-analysis of the deposited data

How the results depend on the processing

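Read depth is unknown, which limits every low value. Without any 1 library, the members called ran from 1 to 4 for Y minus K326, 0 to 6 for KY minus K326 and 1 to 4 for KY minus Y. All tested genes called ran from 181 to 450, 76 to 655 and 114 to 302. The counts of 6 and 655 arose without KY replicate 1. With a mean of at least 5, which left 41 members, the members called were 1, 0 and 1 and all calls 156, 60 and 127. For KY minus K326, 0 members were called with a pseudocount of 0.1, no filter, either other scaling, or only KY and K326 fitted. With only KY and Y fitted, 127 genes were called in all. Labels give each material replicates 1 to 3, but libraries of the same number did not deviate together (correlations from -0.17 to 0.18), so the numbers were not taken as pairs. With the replicate block, all calls were 211, 85 and 134 and members called 2, 0 and 1. No call of a member above the threshold of 1 changed sign in any setting, nor did any of the 38 calls of list genes, of which 18 were kept in every setting. The cause of these changes was not tested.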
